A study of Homo sapiens with 6 samples.

Results

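The transcriptome of untreated T98G, a long-established cell line from a human glioblastoma, was read from the 2 libraries of the series that received neither vector (NT 1 and NT 2), of 6 libraries in all. The 2 libraries were chosen by their label, and every gene row of both tables was kept. All 6 libraries came from T98G cells grown in DMEM with fetal bovine serum. In the other groups the cells were transiently transfected with a lipid reagent, 2 libraries with a short hairpin against SRPK1 in pLKO.1 (shSRPK1) and 2 with pcDNA3.1 carrying the SRPK1 coding sequence to raise its level (oeSRPK1). The sources used here give neither the passage of the cells nor the time from transfection to harvest. Library preparation used poly(A) selected RNA, so histone and other transcripts without a tail are under-represented. The NT cells saw no lipid reagent and no empty vector, and no library of cells given an empty vector was analysed here. Nothing says that the 2 NT libraries came from separate cultures, so the spread between them may be technical.

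Glioblastoma is a malignant brain tumour whose cells are related to glia and neural precursors. Its lines in serum culture often lose astrocyte and stem cell transcripts and carry a mesenchymal profile of matrix, adhesion and inflammatory genes. Growth in this tumour is commonly driven by receptor tyrosine kinases, the surface proteins that turn a bound ligand into RAS and PI3K signalling, and by loss of the brakes on the cell cycle, of which the CDKN2A locus on the short arm of chromosome 9 is the best known. MGMT, a protein that takes the methyl group off damaged guanine and so protects cells from temozolomide, is a marker by which T98G is often told from other glioblastoma lines.

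Reads in genes numbered 9891606 in NT 1 and 13634038 in NT 2, within the range of the transfected libraries (3891549 to 22691215). A gene was called expressed with at least 3 reads in each NT library, a floor equal to 0.303 counts scaled to the gene reads of the library (CPM) in NT 1 and 0.22 CPM in NT 2. A gene with no read can therefore lie anywhere below these levels, and this limit covers counting error only. Of 60483 gene rows, 16102 (26.6%) were above the floor and 36695 (60.7%) had no read in either library. Of 19645 protein-coding genes, 12707 (64.7%) were above the floor, 4889 (24.9%) had no read and 2049 lay between. A mean of 1000 CPM was reached by 94 genes, and the 10 most abundant genes held 9% of gene reads in NT 1 and 8.88% in NT 2. Levels of different genes are compared below as TPM, the length-scaled counterpart of CPM, which divides reads by the summed exon length of the gene in GENCODE 29 (GRCh38).

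The most abundant transcript was that of COL6A3, the alpha 3 chain of the microfibril-forming collagen VI, at 19189.6 CPM in NT 1 and 17057.7 CPM in NT 2. It was followed by IGFBP5, a secreted binding protein of insulin-like growth factors, at 11098.3 and 11671.7 CPM. Apart from mitochondrial transcripts, the other genes of the top 15 by CPM were FTL and FTH1, the ferritin chains that store iron, the translation factor EEF1A1, GAPDH, the secreted adhesion protein TGFBI, NQO1, the laminin chain LAMB1 and TXNRD1. Per length, FTL led all genes with 42850.5 TPM in NT 1 and 39811.7 TPM in NT 2. NQO1 and TXNRD1 encode a quinone reductase and thioredoxin reductase, both part of the oxidant defence described below.

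Of the 5 genes taken to mark the line, VIM, CD44 and MGMT were expressed and SOX2 and GFAP had no read in either library. VIM, the intermediate filament of mesenchymal cells and of reactive glia (chr10:17228259-17237593, plus strand, GRCh38), was counted in 18821 reads of NT 1 and 29976 of NT 2, or 1359 and 1553 TPM. CD44, the hyaluronan receptor (chr11:35138870-35232402, plus strand), had 26050 and 38306 reads, or 970 and 1023 TPM. MGMT (chr10:129467184-129768007, plus strand) had 165 and 228 reads, or 17.3 and 17.1 TPM. The levels of these 3 genes were thus close in both libraries, while GFAP, the filament that defines astrocytes, and SOX2, a factor of neural stem cells, were not detectable at this depth. Exon bases shared with no other annotated gene made up 100% of SOX2 and 81.6% of GFAP. The 5 markers of the line were thus split, with VIM, CD44 and MGMT expressed and GFAP and SOX2 not detected. Expression of these 3 genes does not by itself identify a glioblastoma cell.

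Mesenchymal glioblastoma markers were the lineage list with the widest expression. All 23 genes of that list were above the floor, beside 11 of 18 astrocyte, 8 of 18 oligodendrocyte and precursor, 9 of 20 neuronal and 12 of 22 neural stem and proneural markers, and 64.7% of protein-coding genes at large. The lists were chosen with earlier results of these data known, and how widely their members are expressed in other tissues was not compared. The counts therefore describe the lists and do not by themselves identify a lineage. The median member of the mesenchymal list stood at 117 TPM, and that of the other 4 lists between 0.0677 and 0.461 TPM. S100A6, a calcium-binding protein, was its most abundant member per length, at 4635 TPM in NT 1 and 5665 TPM in NT 2. LGALS1, a secreted galectin, followed at 3442 and 4181 TPM, and TGFBI at 2136 and 2475 TPM. At the low end of the list were CHI3L1, a secreted glycoprotein often taken as the mesenchymal marker of the tumour, at 11.5 and 16.9 TPM, and the actin-binding TAGLN at 5.04 and 5.6 TPM.

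**Figure D1:**
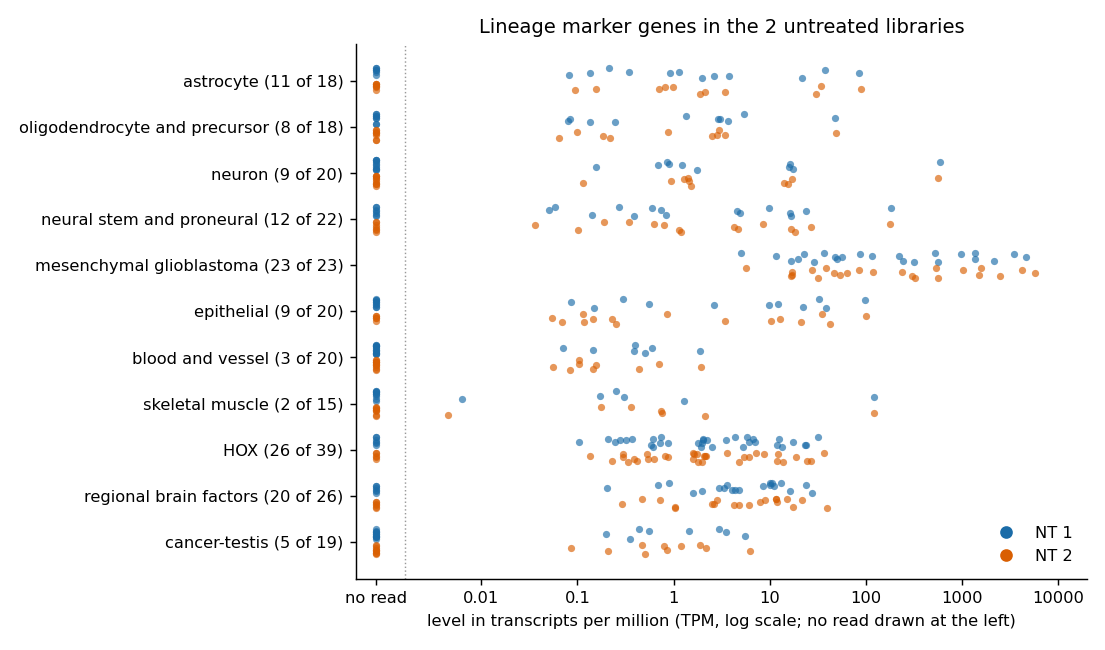
Level of each lineage marker in TPM on a log axis, 1 point per gene and library (blue NT 1, orange NT 2), by list, with the number of members above the floor of 3 reads in each library beside the list name; genes with no read are drawn at the left. All 23 mesenchymal markers lie to the right, while 6 of 18 astrocyte markers and 10 of 20 neuronal markers have no read.

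The glial lists were split between a few well-expressed genes and many with no read. Among astrocyte genes, SOX9, a transcription factor of glial fate, had 84.6 and 88.2 TPM in NT 1 and NT 2, GLUL, which makes glutamine from glutamate, 37.7 and 33.7 TPM, and GJA1, the main astrocyte gap junction protein, 21.6 and 30.4 TPM. GFAP, S100B, AQP4, GJB6, FABP7 and HEPACAM had no read in either library. The glutamate transporter SLC1A3 was low, with 44 and 50 reads. In the oligodendrocyte list, CNP, a phosphodiesterase of myelin that other cells also express, stood at 48 and 48.4 TPM. The lineage factor OLIG2 had 12 and 11 reads, and OLIG1, SOX10, PTPRZ1, BCAN, MOG, MOBP and MAG had no read.

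Neuronal and precursor genes showed the same split. UCHL1, a ubiquitin hydrolase abundant in neurons, had 592 TPM in NT 1 and 557 TPM in NT 2, and the synaptic genes SNAP25 and RIMS3 had 16.3 and 16.8 TPM and 17.5 and 15.6 TPM. The neurofilaments NEFL, NEFM and NEFH, the neuronal RNA-binding genes ELAVL3, ELAVL4 and RBFOX3, and DCX, GAP43 and INA had no read. L1CAM, a neural adhesion molecule, led the stem and proneural list with 182 and 178 TPM, ahead of SOX4 (24 and 26.9 TPM) and SOX11 (16.2 and 16.6 TPM). NES, the filament of neural stem cells, had 9 and 13 reads, PROM1 a single read in each library, and SOX2, MSI1, POU3F2, HES5, NANOG and LIN28A none.

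HOX genes, which set position along the body axis and are silent in the normal forebrain, were expressed from all 4 clusters. Of 39 HOX genes, 26 were above the floor, 14 of the 23 genes with paralog numbers 1 to 8 and 12 of the 16 with numbers 9 to 13. Summed over genes, paralogs 9 to 13 held 136 TPM in NT 1 and 146 TPM in NT 2, and paralogs 1 to 8 held 57.1 and 56.7 TPM. HOXD10 was highest, at 31.8 and 36.9 TPM, then HOXC10 at 23 and 26.7 TPM, HOXD8 at 23.8 and 24.3 TPM, and HOXA13 at 17.4 and 18.8 TPM. HOXC10 and HOXD8 did not differ beyond their spread between libraries. HOXA13 held most of the summed level of its cluster, where HOXA9 and HOXA4 had no read. By cluster, the summed level was 85 and 90.8 TPM for HOXD, 58.4 and 60.3 TPM for HOXC, 25.4 and 28.1 TPM for HOXA, and 24 and 23.3 TPM for HOXB.

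**Figure D2:**
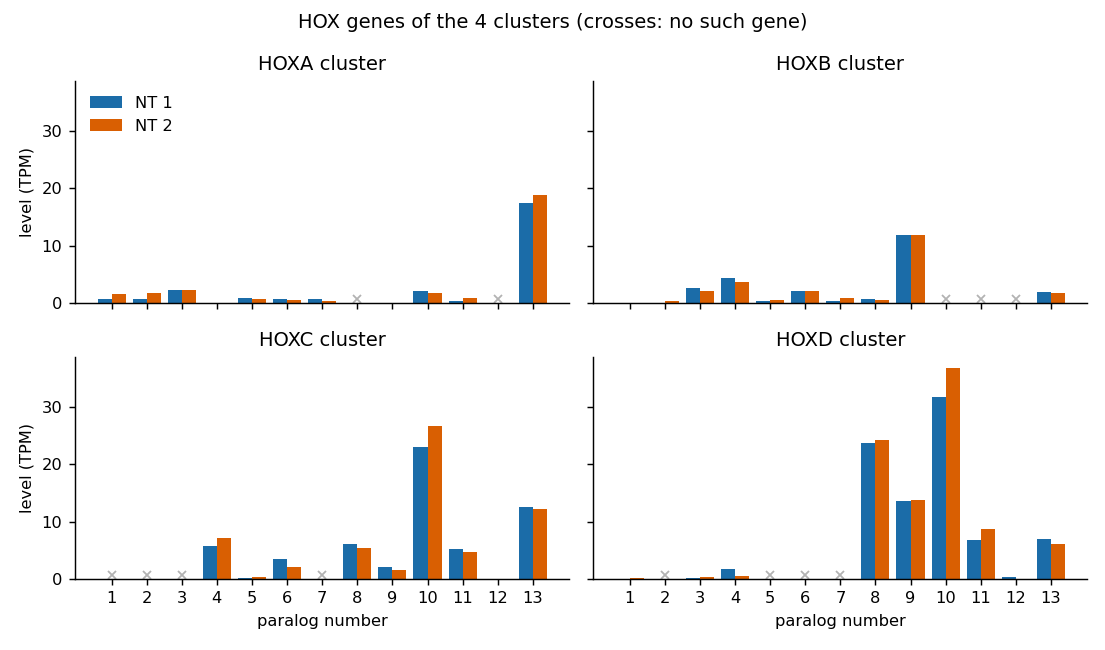
Level in TPM of each HOX gene by paralog number in the 4 clusters, as bars for NT 1 (blue) and NT 2 (orange); crosses mark numbers that have no gene in a cluster. The tallest bars are HOXD10 at 31.8 and 36.9 TPM, and the high bars lie mostly at numbers 8 to 13.

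Factors that mark brain regions were expressed beside them. Of 26 such genes 20 were above the floor. They took in the forebrain factors DLX1 (23.5 and 21.6 TPM) and NKX2-1 (13.1 and 15.1 TPM), the cerebellar and dorsal factor ZIC2 (16.2 and 17.5 TPM), and IRX1, which had the highest level of the list at 27.7 and 38.8 TPM. OTX2, EMX1, EMX2, SIX3, SIX6 and PAX5 had no read. DLX1 and NKX2-1 of the forebrain and the posterior HOX genes, which mark trunk and limb in development, were thus present in the same libraries; whether in the same cells cannot be told from bulk RNA.

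Markers of other tissues were mostly absent, with named exceptions. In the epithelial list 9 of 20 genes were above the floor, led by the transcription factors TFAP2C (98 and 100 TPM) and TFAP2A (32.5 and 34.6 TPM) and the keratin KRT18 (38.8 and 42.4 TPM), while CDH1, the cadherin of epithelia, GRHL2, KRT20 and CLDN3 had no read. The 9 include CDH2, which is on that list as a counterpart of CDH1 but is the cadherin of neural and mesenchymal cells, with 22.2 and 21.2 TPM. Of 20 blood and vessel markers 3 were above the floor, and the pan-leukocyte PTPRC and the haemoglobin genes had no read. Of 15 skeletal muscle markers 2 were above the floor. The first of these was TNNT1, the slow troponin T, at 120 and 121 TPM, and without it the muscle list summed to 0.91 CPM in NT 1 and 1.83 CPM in NT 2. Of 19 cancer-testis genes 5 were above the floor, the highest per length being SPANXB1 with 7 and 11 reads, and reads shared by their near-identical copies may have been lost in counting.

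Receptor tyrosine kinases were expressed from 30 of 54 genes, and the profile was led by AXL, a receptor of the TAM family, at 258 TPM in NT 1 and 238 TPM in NT 2. PTK7, a kinase-dead receptor of Wnt and polarity signalling, followed at 127 and 120 TPM, then EGFR at 93.1 and 96.1 TPM, PDGFRB at 91.4 and 86.4 TPM, and the collagen receptor DDR2 at 84.9 and 70.2 TPM. The levels of EGFR and PDGFRB lay close together without overlapping, and the order of these neighbours was not tested. The HGF receptor MET stood at 48 and 46.4 TPM, FGFR1 at 35.3 and 35.4 TPM, and ERBB2 at 19.2 and 17.3 TPM. PDGFRA, the platelet-derived growth factor receptor of glial precursors, was far below its relative PDGFRB, at 3.67 and 2.53 TPM.

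In several families a member was expressed and its relative was not. ERBB3 had 0 and 2 reads and ERBB4 none, beside 3131 and 4502 reads of EGFR. FGFR2 had no read. KDR and FLT4, the main VEGF receptors of blood and lymph vessels, had no read, and FLT1 had 15 and 17. ALK, NTRK2, RET and ROS1, which are fused or active in some brain tumours, had at most 6 reads in a library.

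**Figure D3:**
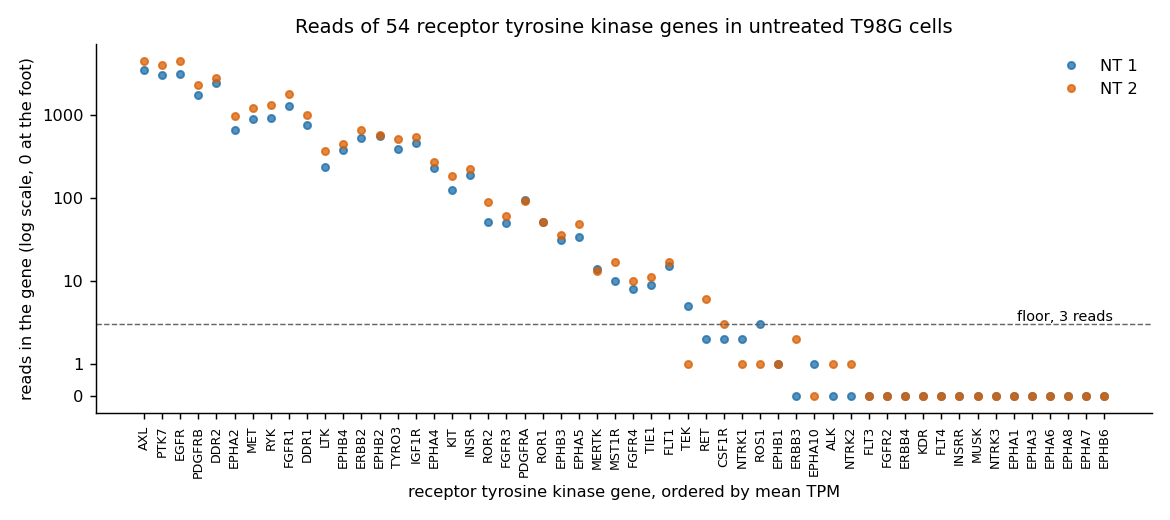
Reads in each of 54 receptor tyrosine kinase genes in NT 1 (blue) and NT 2 (orange), on a log axis with 0 at the foot and ordered by mean TPM; the dashed line is the floor of 3 reads in each library. AXL, PTK7 and EGFR stand at the left as the highest by mean TPM, and 14 genes have no read in either library.

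Of 33 ligands of these receptors 25 were above the floor. The heparin-binding growth factor MDK was highest per length, at 488 and 511 TPM. PDGFD, a ligand of PDGFRB, had 198 and 210 TPM, VEGFB 133 and 132 TPM, VEGFA 98.6 and 122 TPM and FGF2 43.6 and 44.1 TPM. GAS6, the ligand of AXL, had 20.2 and 23 TPM, and EGF 8.81 and 8.11 TPM. Both partners of the AXL, PDGFRB and FGFR1 pathways were thus transcribed, while HGF, the ligand of MET, had no read, and nor did AREG, BTC, FGF5, FGF7 and ANGPT2.

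Cytokine and death receptors were above the floor in 30 of 41 cases. IL6ST, the signalling chain shared by receptors of the IL-6 family, had 352 TPM in NT 1 and 322 TPM in NT 2, and OSMR, which pairs with it to bind oncostatin M, 189 and 191 TPM. TNFRSF10B, a death receptor for TRAIL, had 2863 and 4082 reads (207 and 212 TPM), while TNFRSF10A, the other death receptor for that ligand, had 0 and 1. The interferon receptor genes IFNAR1 and IFNGR1 stood at 48.1 and 44.2 TPM and at 94.7 and 86.5 TPM. IL13RA2, a decoy receptor known as a glioblastoma antigen, and TLR2 had no read. Of receptors for TGF-beta, BMP, Notch, Wnt and Hedgehog ligands 27 of 31 were above the floor, led by FZD7 (117 and 118 TPM).

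Glutamate and GABA receptors were above the floor in 7 of 36 cases, and a single subunit dominated them. GABRA2, the alpha 2 subunit of the inhibitory GABA-A channel, reached 4295 reads in NT 1 and 6751 reads in NT 2, or 134 and 151 TPM. No gamma subunit was above the floor. The AMPA receptor genes GRIA1, GRIA2 and GRIA3 had no read, and GRIA4 had 23 and 57. GRIN1, the obligatory subunit of NMDA receptors, had no read, beside 127 and 221 reads of GRIN2A.

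Nuclear receptors were above the floor in 26 of 39 cases. NR2F1, an orphan receptor that patterns the cortex, was highest at 286 and 305 TPM, ahead of the glucocorticoid receptor NR3C1 at 97.5 and 97.8 TPM. The oestrogen receptors ESR1 and ESR2 and the progesterone receptor PGR had no read.

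Metabolic genes were expressed more often than those of lineage, 119 of 150 against 128 of 240. Glycolysis was served by 24 of 33 listed genes. GAPDH had 6998 TPM in NT 1 and 8315 TPM in NT 2, ENO1 1791 and 1943 TPM, PKM 1099 and 1155 TPM, and LDHA, which makes lactate, 1049 and 1221 TPM. Glucose uptake genes were led by SLC2A1, at 397 and 488 TPM. HK1, the common hexokinase, stood at 125 and 123 TPM and HK2, the form induced in tumours, at 62.1 and 84.3 TPM. SLC2A2 and PKLR, forms of liver, and PGK2 and LDHC, forms of testis, had no read.

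Enzymes of glucose synthesis were lacking at several steps. FBP1 and FBP2, the fructose bisphosphatases, and G6PC1 had no read, and PCK1, the cytosolic PEP carboxykinase, had 0 and 1. PCK2, its mitochondrial form, was present with 803 and 1045 reads (71.4 and 66.7 TPM). Of 28 genes of the citric acid cycle and its feeding steps 26 were above the floor, and IDH1, the cytosolic isocitrate dehydrogenase, was highest per length at 183 and 162 TPM. The genes of that list that were not above the floor were PDHA2, a testis form, with no read, and ME3 with 0 and 2.

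Amino acid genes were above the floor in 30 of 35 cases. PSAT1, an enzyme of serine synthesis, had 866 TPM in NT 1 and 730 TPM in NT 2. SLC7A11, the cystine importer that feeds glutathione synthesis, had 16757 and 22004 reads (647 and 610 TPM), and ASNS, which makes asparagine, 570 and 502 TPM. ASS1, which makes argininosuccinate and is lost in some gliomas, was present at 212 and 210 TPM. The urea cycle was incomplete, since OTC and ARG1 had no read while CPS1 had 401 and 470.

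Oxidant and aldehyde defence held some of the most abundant transcripts of the line, with 31 of 36 genes above the floor and a median of 198 TPM over the list. NQO1 reached 37484 reads in NT 1 and 52983 reads in NT 2, or 4290 and 4352 TPM. PRDX1, a peroxiredoxin, had 3527 and 3361 TPM, AKR1B1, an aldose reductase, 1772 and 2012 TPM, and TXNRD1 1843 and 1638 TPM. AKR1C2 had 1405 and 1314 TPM and AKR1C1 698 and 676 TPM, although these neighbours are near-identical and their split is uncertain. Glutathione synthesis was represented by GCLC at 259 and 253 TPM. Most of these genes are known targets of the transcription factor NRF2. HMOX1, another such target, was lower, at 46.5 and 35.3 TPM. Among aldehyde dehydrogenases ALDH1A3, a marker of mesenchymal glioma stem cells, had 243 and 210 TPM, and ALDH1A1 12.8 and 14.7 TPM.

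Matrix genes were above the floor in 116 of 157 cases, with 25 of 44 collagen chains. The 3 common chains of collagen VI were all present, COL6A3 at 3601 and 3166 TPM, COL6A2 at 655 and 703 TPM and COL6A1 at 611 and 683 TPM. The chains of collagen I were not matched. COL1A2 (chr7:94394561-94431232, plus strand, GRCh38), the alpha 2 chain, gave 25702 reads in NT 1 and 37133 reads in NT 2, and COL1A1 (chr17:50183289-50201632, minus strand), the alpha 1 chain that normal fibrils hold in greater number, had 41 and 34. Per length, COL1A2 exceeded COL1A1 552-fold in NT 1 and 961-fold in NT 2, and every exon base of COL1A1 is free of other genes. COL3A1, the other chain of soft tissue fibrils, had 27.8 and 34.5 TPM, and COL5A1 189 and 209 TPM. COL2A1 of cartilage and COL10A1 of growth plates had no read.

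Basement membrane chains were strong, with LAMB1 at 1522 and 1384 TPM and LAMC1 at 492 and 414 TPM, while the alpha chains that complete the laminin trimer were lower, LAMA4 at 72.8 and 66.6 TPM and LAMA5 at 5.32 and 5.44 TPM. Fibronectin (FN1) stood at 249 and 252 TPM and thrombospondin (THBS1) at 331 and 324 TPM. The brain proteoglycan genes BCAN, NCAN and ACAN and the link protein HAPLN1 had no read, as did TNR and ELN, while the cell-surface SDC4 had 483 and 636 TPM.

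Proteases and crosslinkers were expressed in 33 of 36 cases. LOXL2, which crosslinks collagen, had 765 and 768 TPM, MMP2, a gelatinase, 707 and 695 TPM, PLAU, the urokinase, 528 and 512 TPM, and MMP14, the membrane-bound activator of MMP2, 271 and 248 TPM. MMP9, the other gelatinase, had a single read in each library. Of 26 integrin genes 20 were above the floor. ITGB1, the common beta subunit, had 558 and 554 TPM, followed by the alpha subunits ITGA6 (291 and 236 TPM), ITGAV (245 and 244 TPM) and ITGA3 (216 and 205 TPM). ITGB2 and ITGAL, which together form a leukocyte integrin, had at most 2 reads in a library.

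Tumour suppressors were nearly all transcribed. Of 23 suppressors that act on the cell cycle and on cell death 22 were above the floor, of 25 signalling suppressors 24, and of 27 chromatin and genome guardians 26. RB1, the brake on the G1/S transition, gave 931 reads in NT 1 and 1253 reads in NT 2 (53.7 and 51.9 TPM), and NF1, which restrains RAS, 1296 and 1612 (17.8 and 15.9 TPM). A transcript level says nothing of mutations in these genes. The exceptions were CDKN2C, an inhibitor of CDK4 and CDK6, with no read in either library, PTPRD, a phosphatase, with 1 and 2 reads, and CDH1. MSH6, of mismatch repair, stood at 53.5 and 46.4 TPM.

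CDKN2A barely passed the floor while its neighbours were well expressed. CDKN2A (chr9:21967753-21995301, minus strand, GRCh38), which encodes the p16 and p14ARF proteins, gave 4 reads in NT 1 and 6 reads in NT 2. CDKN2B (chr9:22002903-22009363, minus strand), which encodes p15 and lies 7.602 kb away, had 288 and 481 reads, and per length it exceeded CDKN2A 76.8-fold and 85.5-fold. MTAP, a methionine salvage enzyme that is often deleted together with CDKN2A, had 345 and 449 reads on the other side. The antisense transcript CDKN2B-AS1, which overlaps the locus, had 20 and 31. Within 2 Mb of CDKN2A lay 76 annotated genes, CDKN2A itself included, of which 14 were above the floor. Of the 26 protein-coding genes, 16 belong to the type I interferon cluster and none of these was above the floor, with no read in 14, a single read in each library in IFNB1, and 4 and 2 reads in IFNE. Of the other 10 protein-coding genes, CDKN2A among them, 8 were above the floor. Reads were thus present on both sides of CDKN2A. Copy number was not measured here.

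**Figure D4:**
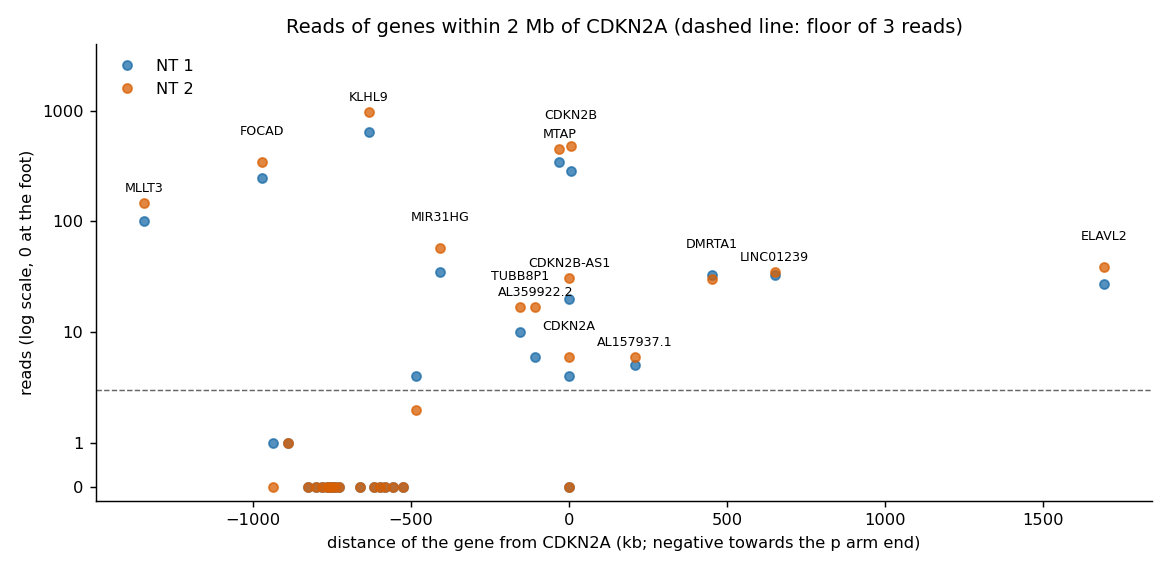
Reads in NT 1 (blue) and NT 2 (orange) of the protein-coding genes within 2 Mb of CDKN2A, and of other genes with at least 3 reads in each library, against their distance from CDKN2A in kb; the read axis is logarithmic with 0 at the foot, and the dashed line is the floor. CDKN2A has 4 and 6 reads, between MTAP with 345 and 449 and CDKN2B with 288 and 481, and the points at 0 left of centre are mostly interferon genes.

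Growth drivers were above the floor in 31 of 36 cases. CCND1, the cyclin of early G1, had 3319 and 4082 reads (256 and 226 TPM), whereas CCND2 had 1 and 0. Its partner kinases CDK4 and CDK6 had 212 and 186 TPM and 63.5 and 61.4 TPM. MYC had 987 and 1189 reads (122 and 106 TPM), while MYCN had a single read in each library. The survival gene MCL1 stood at 241 and 266 TPM, BCL2L1 at 76.9 and 79 TPM and BCL2 at 2.25 and 1.48 TPM. TERT, the catalytic subunit of telomerase, was low but above the floor, with 13 and 11 reads. IGF2BP3, a fetal RNA-binding protein, had 77.8 and 72.2 TPM, and its relative IGF2BP1 had 1 and 2 reads.

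The counting step limits some of these absences. Of 289 list members that were not above the floor, 167 had no read and 122 had a few, and the median member had 100% of its exon bases free of other annotated genes. In 10 of them less than 50% was free, namely PGAM2, GYS2, TLR9, GLS2, IGF1, HOXD3, GAPDHS, HOXC5, HOXD1 and GRM5, so their reads could have been set aside as ambiguous. Between 28.5 and 33.4 Mb of chromosome 6, the region of the major histocompatibility complex, 72 of 174 protein-coding genes (41.4%) had no read, against 213 of 860 (24.8%) on the rest of that chromosome. Genes of that region, such as the stress genes HSPA1A, with 0 and 1 read, and IER3, with none, may therefore be listed too low, which was not tested.

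The NT libraries were alike but not the same within counting error. Across genes, log2 CPM correlated with Pearson r 0.9921, where genes are not independent replicates. After scaling by the trimmed mean of M values (TMM), 14020 genes with at least 20 reads over both libraries were compared. Of these, 142 (1.01%) were over 2-fold higher in NT 2 and 68 (0.485%) over 2-fold higher in NT 1. The median absolute log2 ratio fell with level, from 0.457 for genes under 1 CPM to 0.0779 for those of 1000 CPM and more. Counting error alone would give 0.437 and 0.0104, so the abundant genes differed by more than their counts allow. These are 2 libraries of the same group, so no test was made between them, and the 95% intervals below (exact binomial) cover counting error only.

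Interferon-stimulated genes, which encode antiviral proteins and are switched on by the interferon receptors, were higher in NT 2. Of 48 such genes, all above the floor in both libraries, 45 were higher in NT 2, as were 50.7% of all genes compared. For 36 of the 48 the interval of the ratio lay above 1, against 9.86% of all genes, and for 0 it lay below 1, against 10.2%. Their median log2 ratio of NT 2 to NT 1 was 0.519, and that of all genes 0.00245. RSAD2, which encodes the antiviral enzyme viperin, went from 9 reads in NT 1 to 77 in NT 2, a ratio of 6.23 (95% interval 3.12 to 14.1). IFI27 had 35 and 257 reads, a ratio of 5.35 (3.75 to 7.85). IFI44L had 123 and 524 reads (3.10, 2.54 to 3.81), IFI6 297 and 1124 (2.76, 2.42 to 3.14) and IFIT1 101 and 334 (2.41, 1.92 to 3.04). Of the 12 largest rises among genes with at least 50 reads, 5 were on the interferon list, and among the others were the immediate early gene FOS with 15 and 53 reads and TBX19 with 11 and 41. In bulk RNA, more cells with such transcripts and more transcript per cell cannot be told apart.

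Interferon-stimulated genes are commonly switched on through the interferon-stimulated response element, bound by complexes of STAT and IRF proteins. A motif that covers its core, GAAA repeated after a gap of any 2 bases, was searched on both strands from 250 bases before to 50 bases after the start of each gene in RefSeq promoters (GRCh38.p14). It was found in 26 of the 39 promoters of the list that the table holds (66.7%), in 296 of 10279 promoters of protein-coding genes above the floor (2.88%) and in 996 of all 27305 (3.65%). Among genes over 2-fold higher in NT 2, it was found in 5 of 6 promoters of the list and in 3 of 75 others (4%). The promoters of 4 such genes are shown to let the element be seen, with matches in capitals and sequence given on the strand of the gene.
IFI27, chr14:94110486-94110785, plus strand: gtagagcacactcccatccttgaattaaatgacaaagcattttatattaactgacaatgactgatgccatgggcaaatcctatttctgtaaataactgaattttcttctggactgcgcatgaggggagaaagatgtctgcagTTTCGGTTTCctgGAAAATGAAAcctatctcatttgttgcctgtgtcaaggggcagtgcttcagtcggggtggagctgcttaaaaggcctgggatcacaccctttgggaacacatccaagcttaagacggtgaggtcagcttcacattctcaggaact
IFI6, chr1:27672143-27672442, minus strand: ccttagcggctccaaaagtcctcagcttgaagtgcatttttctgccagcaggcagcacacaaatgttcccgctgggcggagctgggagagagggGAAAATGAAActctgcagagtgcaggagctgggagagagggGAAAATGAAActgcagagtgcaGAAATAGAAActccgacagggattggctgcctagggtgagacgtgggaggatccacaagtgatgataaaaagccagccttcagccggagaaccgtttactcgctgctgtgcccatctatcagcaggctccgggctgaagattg
IFIT1, chr10:89392373-89392672, plus strand: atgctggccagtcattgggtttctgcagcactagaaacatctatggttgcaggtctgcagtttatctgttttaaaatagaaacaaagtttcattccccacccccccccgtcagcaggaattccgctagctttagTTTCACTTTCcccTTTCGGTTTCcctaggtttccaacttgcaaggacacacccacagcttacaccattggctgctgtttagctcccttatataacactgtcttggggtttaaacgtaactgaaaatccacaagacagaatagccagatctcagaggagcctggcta
IFITM1, chr11:313790-314089, plus strand: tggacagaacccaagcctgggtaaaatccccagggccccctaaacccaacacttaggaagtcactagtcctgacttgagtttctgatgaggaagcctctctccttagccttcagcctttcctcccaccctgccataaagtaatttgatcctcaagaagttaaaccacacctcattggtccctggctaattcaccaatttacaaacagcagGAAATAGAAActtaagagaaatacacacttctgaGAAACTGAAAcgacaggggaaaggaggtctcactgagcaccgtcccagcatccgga

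IFI6 held 3 matches, and IFI27, IFIT1 and IFITM1 held 2 each. For RSAD2, whose ratio was the largest, the window searched (chr2:6865635-6865934) held no match. It did hold GAAA repeated after a gap of a single base, which the motif leaves out. A single start was searched per gene, so the absence of a match does not show that RSAD2 lacks the element. A match describes the letters and does not show that a factor was bound.

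Other gene groups differed between the NT libraries in a graded way. Of 20 hypoxia genes, targets of the oxygen-sensing factor HIF, 19 were higher in NT 2, with a median log2 ratio of 0.327 and intervals above 1 in 17. VEGFA had 386.2 CPM in NT 1 and 483.4 CPM in NT 2, and ANKRD37 had 9 and 28 reads, the only member past 2-fold. Of 23 glycolysis genes compared 19 were higher in NT 2 (median log2 ratio 0.228), and of 18 NF-kB and cytokine genes 16 (0.339). Some lists share members, such as SLC2A1, SLC2A3 and HK2 (hypoxia and glycolysis) and RELB (NF-kB and mesenchymal), and are not independent. The mesenchymal markers were higher in NT 2 in 21 of 23 cases (0.13), with intervals above 1 in 12 and below 1 in 0. Genes of the G1/S transition and DNA replication went the other way, with 0 of 29 higher in NT 2, a median of -0.266 and intervals below 1 in 22. Of 24 G2/M genes 4 were higher in NT 2 (-0.197). The interval lay below 1 for 13 of 29 amino acid genes (44.8%) and 11 of 26 chromatin and genome suppressors (42.3%). Among all genes it lay above 1 in 9.86% and below 1 in 10.2%. Other lists came near, with the interval below 1 in 37.9% of oxidant and aldehyde genes and 35.5% of growth drivers. Intervals of counting error are narrow for abundant genes, so the shares of lists at unlike levels are not directly comparable. Mitochondrially encoded genes stood at a median of 0.000254, and the mitochondrial share of gene reads was 4.97% in NT 1 and 4.99% in NT 2. Genes lower in NT 2 by over 2-fold with at least 50 reads were 6, among them BEND3 with 59 and 39 reads and CORO1A, an actin-binding protein of leukocytes, with 34 and 23.

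**Figure D5:**
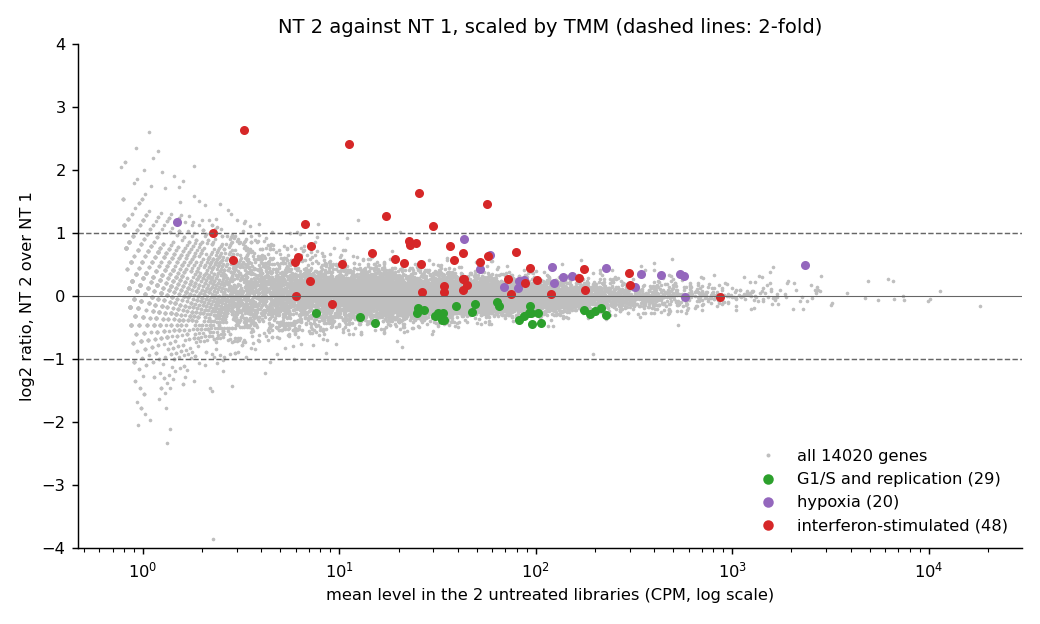
Log2 ratio of NT 2 over NT 1 after TMM scaling against the mean level in CPM (log axis), 1 point for each of 14020 genes; red, purple and green mark interferon-stimulated, hypoxia and G1/S genes, and dashed lines mark 2-fold. The red points lie mostly above 0, with RSAD2 and IFI27 highest among them, the purple points slightly above and the 29 green points all below 0.

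The transfected groups showed which of these levels had shifted beside the untreated cells, in cells that also received reagent and vector. SRPK1 itself, a kinase of splicing factors, stood at 158.8 and 145.8 CPM untreated, 109.7 and 135.7 CPM with the hairpin and 186.5 and 167.0 CPM with the vector. The groups did not overlap, but the change was below the threshold in both comparisons by edgeR's quasi-likelihood test with Benjamini-Hochberg adjustment, at log2 -0.21 ± 0.14 (SE, adjusted p = 0.36) and 0.29 ± 0.14 (adjusted p = 0.175). Of 14732 genes tested, 800 (5.43%) were called higher and 552 (3.75%) lower in shSRPK1 than in NT, and 1644 (11.2%) higher and 1392 (9.45%) lower in oeSRPK1. Both comparisons share the NT libraries. Of the 871 genes of the 5 sections together (lineage, receptor, metabolic, matrix and tumour suppressor lists) 578 passed the filter on low counts. Of these, 54 (9.34%) were higher and 31 (5.36%) lower in shSRPK1, and 106 (18.3%) higher and 107 (18.5%) lower in oeSRPK1. Some members passed that filter through the transfected libraries alone. Of the 567 that were also above the floor in NT, 54 were higher and 31 lower in shSRPK1, and 103 higher and 107 lower in oeSRPK1. The counts over the 578 changed with the libraries kept, falling without an NT or oeSRPK1 library and rising without an shSRPK1 library. Without NT 1 they were 1 and 2 in shSRPK1 and 17 and 23 in oeSRPK1, without NT 2 3 and 2, and 25 and 30, without oeSRPK1 1 13 and 10, and 27 and 16, and without oeSRPK1 2 14 and 10, and 56 and 47. Without shSRPK1 1 they rose to 137 and 87, and 180 and 176, and without shSRPK1 2 to 139 and 124, and 180 and 175. With a fit of the compared groups alone they were 6 and 5, and 185 and 170.

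Most oxidant and aldehyde genes stood lower in oeSRPK1 than in the untreated cells. Of 30 tested, 24 were lower and 1 higher in oeSRPK1, beside 9.45% lower and 11.2% higher of all genes tested. In shSRPK1 3 of the 30 were lower and 0 higher, beside 3.75% and 5.43% of all genes tested. Without NT 1, NT 2, oeSRPK1 1 and oeSRPK1 2 in turn, 10, 11, 8 and 12 were lower in oeSRPK1. In shSRPK1 0 were lower without each of these 4 libraries in turn or with only the compared groups fitted, 6 without shSRPK1 1 and 16 without shSRPK1 2. In untreated cells NQO1 had 3789 and 3886 CPM, against 1978 and 3101 CPM with the hairpin and 720.3 and 950.5 CPM with the expression vector, where log2 was -2.13 ± 0.24 (edgeR adjusted p = 0.00166). ALDH3A1, an aldehyde dehydrogenase, went from 96.8 and 96.7 CPM untreated to 40.1 and 85.3 CPM with the hairpin and 6.04 and 10.5 CPM with the vector (log2 -3.63 ± 0.45, edgeR adjusted p = 0.0056). Both oeSRPK1 libraries lay below both NT libraries for NQO1 and ALDH3A1, and the shSRPK1 libraries lay between. The calls of both genes were known when they were named, so this order is no added evidence. GPX1, a glutathione peroxidase, was the member that was higher, at 72.4 and 72.7 CPM in NT and 98.5 and 94.3 CPM in oeSRPK1 (log2 0.49 ± 0.12, edgeR adjusted p = 0.0277). Without NT 1, NT 2, oeSRPK1 1 or oeSRPK1 2 the edgeR adjusted p of GPX1 was 0.207, 0.186, 0.25 and 0.105, and without oeSRPK1 1 that of NQO1 was 0.0505 and that of ALDH3A1 0.052.

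Of the line's markers, MGMT went from 16.7 and 16.7 CPM untreated to 14.1 and 14.6 CPM with the hairpin and 10 and 11.1 CPM with the vector (log2 -0.61 ± 0.16, edgeR adjusted p = 0.0301). SOX9 was higher in both, from 90.4 and 95.3 CPM in NT to 127 and 142 in shSRPK1 (log2 0.64 ± 0.12, edgeR adjusted p = 0.021) and 259 and 243 in oeSRPK1 (log2 1.51 ± 0.12, edgeR adjusted p = 0.000454). EGFR rose likewise, from 316 and 330 CPM to 507 and 454 in shSRPK1 (log2 0.67 ± 0.15, edgeR adjusted p = 0.0357) and 1189 and 952 in oeSRPK1 (log2 1.80 ± 0.16, edgeR adjusted p = 0.000596). KIT, the receptor of stem cell factor, fell in both, from 12.8 and 13.6 CPM to 3.81 and 2.69 in shSRPK1 (log2 -1.91 ± 0.23, edgeR adjusted p = 0.00631) and 4.10 and 3.34 in oeSRPK1 (log2 -1.69 ± 0.24, edgeR adjusted p = 0.00357). For SOX9, EGFR and KIT no transfected library overlapped the NT libraries. Their calls were known when they were named, so this separation is no added evidence. COL5A1 rose from 574 and 643 CPM to 1737 and 1489 in shSRPK1 (log2 1.51 ± 0.15, edgeR adjusted p = 0.0034), and to 947 and 888 in oeSRPK1 (log2 0.67 ± 0.15, edgeR adjusted p = 0.0178). Several of these calls missed the threshold when a library was left out, which also leaves its group with no spread of its own. The calls of EGFR, SOX9, KIT and COL5A1 in shSRPK1 missed the threshold without NT 1 (edgeR adjusted p 0.336, 0.281, 0.101 and 0.0943) and without NT 2 (0.211, 0.163, 0.0857 and 0.0536), and those of EGFR and SOX9 also without oeSRPK1 1 (0.0783 and 0.0732) or oeSRPK1 2 (0.0806 and 0.0742) or with only the compared groups fitted (0.0794 and 0.0736), and that of EGFR with a replicate block (0.0524). In oeSRPK1, MGMT missed it without NT 1, NT 2, oeSRPK1 1 or oeSRPK1 2 (edgeR adjusted p 0.185, 0.178, 0.235 and 0.095), with DESeq2 (0.0712) and with a replicate block (0.0506). COL5A1 missed it without the same 4 libraries (0.198, 0.114, 0.197 and 0.0854), while KIT did so without NT 2 or oeSRPK1 1 (0.052 and 0.066). EGFR and SOX9 in oeSRPK1 passed it under every alternative run.

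The interferon-stimulated genes, of which 45 of 48 were higher in NT 2 than in NT 1, were mostly higher still in the transfected cells. There 46 of 48 were called higher in shSRPK1 and 47 in oeSRPK1, beside 5.43% and 11.2% of all genes tested. Without NT 1 the counts were 15 and 27, and without NT 2 they were 17 and 35. IFI44L stood at 12.4 CPM in NT 1 and 38.4 CPM in NT 2, against 470 and 824 CPM with the hairpin and 530 and 486 CPM with the vector. NT 2 thus lay above NT 1 and both lay below every transfected library.

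Of the 167 list members with no read in the NT libraries, 0 had at least 3 reads in both shSRPK1 libraries and 7 in both oeSRPK1 libraries. They were CXCL2 and 6 muscle genes, CKM, CKMT2, MYH1, MYH2, MYH7 and TNNT3. Over all 36695 genes with no read in NT, 15 reached this in shSRPK1 and 77 in oeSRPK1, and over the 4889 protein-coding genes 2 and 58. Other muscle genes were among the 77, such as MYH6 with 894 and 1765 reads and NEB with 456 and 1008, both chosen after their values were seen. Without TNNT1, the 15 muscle markers summed to 221 CPM in oeSRPK1 1, 2671.2 CPM in oeSRPK1 2, 1.61 CPM in shSRPK1 1 and 12.6 CPM in shSRPK1 2, beside 0.91 and 1.83 CPM in NT. The oeSRPK1 libraries thus differed widely from each other and lay above the rest, shSRPK1 2 stood above NT, and shSRPK1 1 lay between the NT libraries. The part of these transcripts in the differences from NT was not tested.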

How the data were processed

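The authors' deposited tables hold raw read counts per gene for 6 libraries of poly(A) RNA, sequenced as 101 bp paired reads. FastQC, Trimmomatic, STAR 2.5.3 and hg38 are named in the submitters' processing notes; the counting tool, annotation and strand setting are not given in the sources used here, so a gene and its antisense partner may share reads. Rows that name no gene were left out: no feature 8.13 to 11.1% of reads, ambiguous 3.04 to 3.37% and several places 12 to 13.1%. CPM was taken over gene rows and TPM from exon lengths of GENCODE 29. Groups were compared with edgeR 4.0.16 in R 4.3.3 (TMM, filterByExpr with a minimum count of 10 and a total of 15, quasi-likelihood test, Benjamini-Hochberg adjusted p of 0.05) over all 6 libraries, 14732 genes and 99.83% of gene reads. The common biological coefficient of variation was 14.5%. DESeq2 1.42.0 was an alternative, beside other filters, scalings and libraries left out. The ratio of NT 2 to NT 1 has an exact binomial interval, computed with scipy 1.17.1. P-values measure the spread between these libraries, which may be technical.

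Genes named are, per list, the 6 highest per length, those with fewest reads and up to 3 with the smallest adjusted p in each comparison, the 15 most abundant genes, the 12 largest rises and falls between the NT libraries, and genes within 2 Mb of CDKN2A. Relatives of such a gene on the other side of the floor are named with it, and the remaining names were chosen after their values were seen. The subject, its members and the gene lists were chosen with earlier results of these data known. Of 1055 listed symbols BAGE and GSTT1 had no row, and 764 of 1053 members were above the floor.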

Additional observations from a re-analysis of the deposited data

How the results depend on the processing

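The count of expressed genes, 16102, lay between 13405 and 17618 under other floors and with either NT library alone. Genes over 2-fold apart between the NT libraries numbered 210, and 1997 with no minimum of reads, 12 with at least 100 reads, 819 at 1.5-fold and 33 at 3-fold. By edgeR, 1352 genes differed between shSRPK1 and NT, and 2616 did with no filter, 129 with only those groups fitted, and 29 to 4595 with 1 library left out. Between oeSRPK1 and NT, 3036 differed, 6331 with only those groups fitted and 293 to 6415 with 1 library left out. The fewest shSRPK1 calls came without NT 1, the fewest oeSRPK1 calls without oeSRPK1 1. A group left with 1 library is assumed to vary like the others. A replicate block in the model gave 1006 and 2639 called genes. The block ended the calls of EGFR in shSRPK1 and MGMT in oeSRPK1. Of the gene calls followed under every alternative, it kept 11 of 13 in shSRPK1 and 22 of 23 in oeSRPK1. Replicate numbers were not shown to pair the libraries: same-numbered deviations correlated at 0.010, -0.019 and 0.023, and no label pairs them. No gene call printed here changed direction under any alternative run. The balance of oeSRPK1 calls did: it was 1644 higher and 1392 lower as reported, but 1892 and 2179 with no filter, 3090 and 3241 with only the groups compared, 3058 and 3291 without shSRPK1 1, and 3052 and 3363 without shSRPK1 2. Depth limits absences to below 3 reads in a library.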
